A study of Homo sapiens with 8 samples.

Results

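The SERPINB cluster on chromosome 18q21 was taken as 10 named genes, SERPINB2, SERPINB3, SERPINB4, SERPINB5, SERPINB7, SERPINB8, SERPINB10, SERPINB11, SERPINB12 and SERPINB13. The members were chosen by name, and all 10 were found by Ensembl identifier among the 63241 gene rows of the count table. The 8 RNA libraries carry the label HSC3, the name of a human cell line derived from an oral squamous carcinoma. By their labels, 4 libraries (knockdown 1 to 4) came from cells given an siRNA against COL1A1, and 4 (control 1 to 4) from cells given the non-targeting siRNA si-NC. Both received 100 pmol of siRNA with a lipid reagent and were collected after 48 hours, so by the labels the controls share the transfection and differ in the siRNA alone. Whether replicates are separate cultures is not stated. The p-values here reflect the spread among these libraries alone, which need not be the spread between separate cultures.

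Serpins are protease inhibitors that present an exposed loop as bait and trap the protease that cuts it. Clade B serpins, the family of these genes, lack a classical secretion signal and act mostly inside cells. In squamous epithelium several members are abundant, and SERPINB3 and SERPINB4 encode the squamous cell carcinoma antigens, measured in serum as markers of squamous carcinomas. SERPINB5 encodes maspin, and SERPINB13 encodes headpin, named for its loss in head and neck squamous tumours.

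The libraries differed widely in content, which touches each value given for the cluster. COL1A1, the siRNA target, stood at 368, 123, 301 and 155 CPM (counts of a gene per 1000000 counts of its library) in knockdown 1 to 4 and at 88.9, 8183, 476 and 689 CPM in control 1 to 4. Control 1 lay below every knockdown library, and control 2, 3 and 4 above every one. The log2 fold change of COL1A1, knockdown over control, was -2.97 (SE 1.3, edgeR adjusted p = 0.981). It thus overlapped between labels, and groups are called by their labels. Total counts ran from 30684584 to 61795990. Basal squamous markers (8 genes) summed to 59942, 1813, 45949 and 14665 CPM in knockdown and to 939, 35108, 11545 and 27395 CPM in control, with KRT14 and KRT5 the most abundant on average over libraries. The adhesion genes ITGA6, ITGB4 and COL17A1 held 49.1% of that sum in knockdown 2 and 54.8% in control 1, against 2.34% to 14.7% in the other 6 libraries. Skeletal muscle markers (12 genes, led by TTN and NEB) summed to between 43.5 and 47116 CPM in knockdown and between 33.0 and 149230 CPM in control. Salivary gland markers (12 genes) reached 100382 CPM in knockdown 2 and 169093 CPM in control 1, and at most 10.3 CPM in the other 6 libraries. Their leading gene was the mucin MUC5B in knockdown 2, at 60244 CPM, and the tear lipocalin LCN1 in control 1, at 66024 CPM, with LCN1 at 0.391 CPM in knockdown 2. Muscle markers took 3.85% and 4.71% of all counts in knockdown 2 and 4 and 14.9% in each of control 1 and 3, and gland markers 10.0% in knockdown 2 and 16.9% in control 1. By muscle and gland markers, 4 of the 8 libraries are unlike a culture of a single squamous carcinoma line. A library outside that count is not thereby shown to be such a culture. Control 2 lay outside it, yet held TTN at 2585 CPM, NEB at 689 CPM and the highest fibroblast marker sum of the 8 libraries. The source of these transcripts was not tested. The values below compare libraries as labelled, and what differs between them besides the siRNA is not known. Knockdown 2 and control 1, the gland-rich libraries, also held the least basal squamous transcript. Fibroblast markers summed to between 332 and 884 CPM in knockdown and between 741 and 10784 in control, and myeloid markers to between 47.7 and 161 CPM in knockdown and between 100.6 and 434 CPM in control. Mast cell markers summed to between 12.4 and 131 CPM in knockdown and between 6.67 and 58.4 in control. The highest sum of each label, in knockdown 2 and control 1, was mostly KIT, at 119 and 54.9 CPM. TPSAB1, CPA3, MS4A2 and HDC were each highest of their label in knockdown 3 and control 3, with CPA3 at 12.2 and 13.1 CPM there. Of the myeloid markers, CD68 was at 0 in 2 of 4 knockdown and 3 of 4 control libraries and at most 0.329 CPM in the others. Every other gene of that list was counted in all 8 libraries. Among them, CD14 ran from 5.84 to 69.9 CPM, CSF1R from 15.2 to 191 CPM and FCGR3B from 0.137 to 3.69 CPM. Why CD68 stood apart was not tested. In bulk RNA, fewer cells of a type and less RNA per cell cannot be told apart, and the part of tissue content in the results below was not tested.

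The 10 genes span 543 kb on chromosome 18, from 63476761 to 64019779 (GENCODE 29 on GRCh38, the assembly also called hg38), with 8 genes on the plus strand and SERPINB3 and SERPINB4 on the minus strand. SERPINB3 (63655197 to 63661963) and SERPINB4 (63637259 to 63644298) are the closest pair: their coding sequences of 1170 bases each differ at 56 positions, an identity of 95.2%. The next closest pair, SERPINB3 and SERPINB13, has 67.6%. The 60-base stretch of the coding sequence with the most differences between the pair is shown because it is where reads separate them best. It covers coding bases 952 to 1011 on the minus strand, at chr18:63655819-63655878 in SERPINB3 and chr18:63637881-63637940 in SERPINB4, lies within 1 exon in each gene, and differs at 10 positions, marked by capitals.
SERPINB3: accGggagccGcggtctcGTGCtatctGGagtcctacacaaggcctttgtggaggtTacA
SERPINB4: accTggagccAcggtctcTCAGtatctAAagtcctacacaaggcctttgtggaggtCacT
Of all 50-base windows in the main SERPINB3 transcript, 23.9% also occur exactly in a SERPINB4 transcript, falling to 3.4% of 100-base windows and 0 of 1628 windows of 150 bases. Read length is not given in the sources used here, so the split of counts within the pair is uncertain to that degree.

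The promoters of the pair are more alike than their coding sequences. From 250 bases before to 50 bases after the RefSeq start (GRCh38.p14, minus strand, chr18:63661844-63662143 for SERPINB3 and chr18:63644207-63644506 for SERPINB4) they differ at 4 of 300 bases, marked by capitals, an identity of 98.7%.
SERPINB3: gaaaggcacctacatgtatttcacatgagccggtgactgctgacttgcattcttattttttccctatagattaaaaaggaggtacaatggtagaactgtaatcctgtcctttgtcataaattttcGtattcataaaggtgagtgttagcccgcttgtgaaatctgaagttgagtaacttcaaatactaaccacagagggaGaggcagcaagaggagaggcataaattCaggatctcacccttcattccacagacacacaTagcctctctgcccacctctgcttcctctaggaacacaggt
SERPINB4: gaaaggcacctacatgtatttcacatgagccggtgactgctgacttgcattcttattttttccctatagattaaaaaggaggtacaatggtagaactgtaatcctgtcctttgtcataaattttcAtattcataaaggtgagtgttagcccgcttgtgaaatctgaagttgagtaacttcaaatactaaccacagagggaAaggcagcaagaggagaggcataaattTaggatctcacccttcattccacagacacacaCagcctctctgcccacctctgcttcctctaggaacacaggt

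RefSeq promoter windows were at hand for 8 of the 10 members, 11 windows in all, since SERPINB7 has 3 listed starts and SERPINB12 has 2. The AP-1 motif, spelled TGANTCA and its own reverse complement, occurs in the windows of 6 of the 8 genes (SERPINB2, SERPINB5, SERPINB7, SERPINB8, SERPINB12 and SERPINB13), or 7 of 11 windows, and in 7.71% of all 35116 promoter windows of this length. The TATA motif TATAAA, searched on both strands at any position, occurs in 5 of the 8 genes, or 5 of 11 windows, and in 11.5% of all windows. The STAT motif, TTC and GAA set 4 bases apart and its own reverse complement, occurs in 0 of the 11 windows and 6.44% of all. The SERPINB3 and SERPINB4 windows hold none of the 3. A match is a description of letters and not of binding. SERPINB7 and SERPINB12 had the largest fitted differences between labels, and 1 window of each is shown. These are SERPINB7 (the start furthest downstream, chr18:63777531-63777830, plus strand) and SERPINB12 (first start, chr18:63542119-63542418, plus strand). Both windows shown hold AP-1 matches, which not all windows of these genes do. The SERPINB7 window at chr18:63752807-63753106 holds no match to the 3 motifs. In the SERPINB12 window at chr18:63555910-63556209 there is 1 TATA match and no AP-1 match. The SERPINB7 window at chr18:63775168-63775467 holds 2 AP-1 matches. Capitals mark AP-1 and TATA matches, and no match overlaps another.
SERPINB7: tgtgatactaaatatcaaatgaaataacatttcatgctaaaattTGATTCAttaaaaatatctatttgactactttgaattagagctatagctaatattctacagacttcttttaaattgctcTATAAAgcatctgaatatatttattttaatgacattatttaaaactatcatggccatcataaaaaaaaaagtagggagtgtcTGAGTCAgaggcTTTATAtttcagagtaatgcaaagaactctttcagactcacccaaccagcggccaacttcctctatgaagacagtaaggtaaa
SERPINB12: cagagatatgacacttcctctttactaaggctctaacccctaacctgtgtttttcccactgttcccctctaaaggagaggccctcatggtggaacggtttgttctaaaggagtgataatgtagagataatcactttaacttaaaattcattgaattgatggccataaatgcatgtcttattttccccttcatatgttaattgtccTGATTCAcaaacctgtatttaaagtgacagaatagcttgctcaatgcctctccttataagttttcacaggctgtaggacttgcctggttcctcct

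Together the 10 genes took 2460.4, 71.9, 2436 and 1399 CPM in knockdown 1 to 4 and 12.6, 1528, 536 and 912 CPM in control 1 to 4. The 2 gland-rich libraries were lowest within their labels, and the labels overlapped. Between labels, 0 of the 10 members passed the threshold (edgeR quasi-likelihood test, Benjamini-Hochberg adjusted p under 0.05), against 0% of the 21192 genes tested. All 10 had passed the filter on low counts. At an unadjusted p under 0.05 stood 2 of 10, SERPINB7 and SERPINB12, both higher in knockdown, against 2.9% of genes tested that were higher at that level and 4.78% in either direction. DESeq2 gave a p for 8 of the 10 members (none for SERPINB2 and SERPINB10) and called the same 2 genes, higher in knockdown. Of the 28237 genes for which it gave an adjusted p, it called 0.457% higher and 0.517% in either direction. By limma-voom 0 of 10 members were called, and 0 genes in all.

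Fitted values were above 0 for 9 of 10 members, against 46.8% of genes tested, and above a log2 fold change of 1 for 7 of 10, against 9.04%. The median log2 fold change of the members was 1.38 and that of all genes tested -0.05. The groups overlapped for all 10 members, while 0.882% of genes tested did not overlap and were higher in knockdown. These counts describe the cluster and are no test of it.

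**Figure D1:**
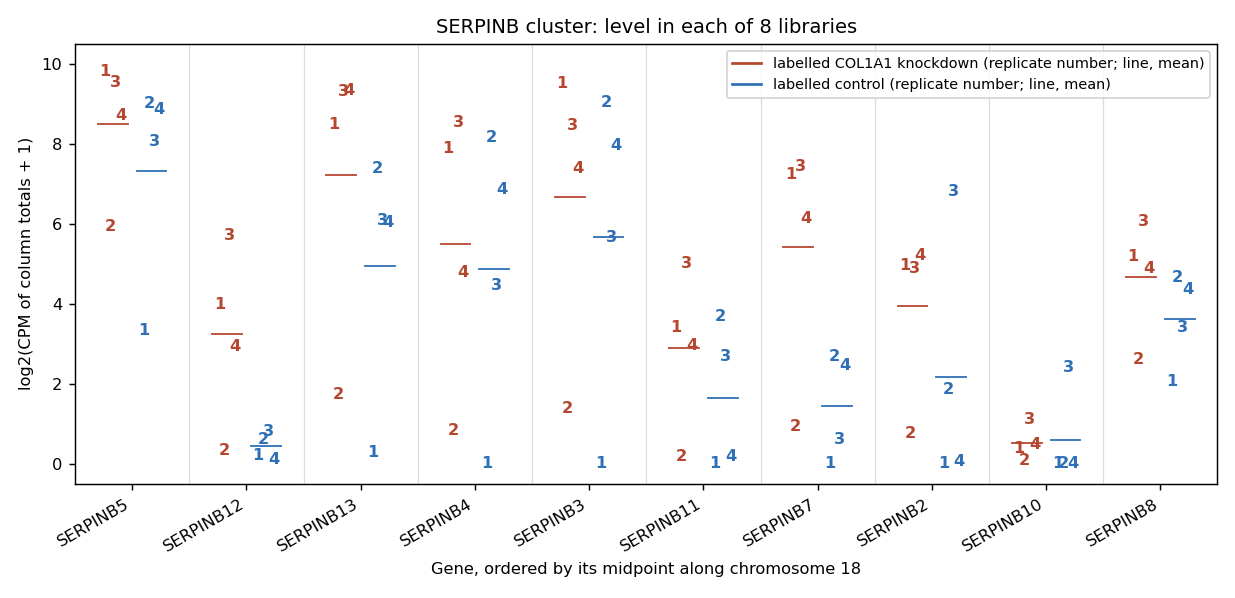
Level of each of the 10 genes in each library, as log2(CPM of column totals + 1), with digits for replicate numbers (red, labelled knockdown; blue, labelled control) and a line at the mean of 4. Knockdown 2 is the lowest of its label for every gene and control 1 the lowest or joint lowest of its label for every gene except SERPINB12, where control 4 is lower.

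The inhibitors of cysteine proteases were SERPINB3 and SERPINB13, which act on papain-like cathepsins such as cathepsins L and K, while the near-identical SERPINB4 acts on chymotrypsin-like serine proteases such as cathepsin G and mast cell chymase. SERPINB3 stood at 729, 1.6, 349 and 167 CPM in knockdown 1 to 4 and at 0, 522, 49.3 and 247 CPM in control 1 to 4. It was high in squamous-rich libraries of both labels and was not counted in control 1, where 0 of 36786421 counts allows up to 0.0816 CPM (3 counts, counting error only). Its log2 fold change, knockdown over control, was 1 (SE 1.91, edgeR adjusted p = 0.995), and it ran from 0.15 without knockdown 1 to 2.03 without control 2. SERPINB4 stood at 234, 0.782, 368 and 26.8 CPM in knockdown and at 0, 283, 20.8 and 114 CPM in control. It followed SERPINB3 from library to library except in knockdown 3 and knockdown 4, where the balance of the pair differed. Its log2 fold change was 1.06 (SE 1.94, edgeR adjusted p = 0.995), with 0.09 without knockdown 3 and 2.26 without control 2. With the counts of the pair summed as one gene the log2 fold change was 1.02 (SE 1.96, edgeR adjusted p = 0.996).

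SERPINB3 counts were 3.11, 2.04, 0.948 and 6.23 times those of SERPINB4 in knockdown 1 to 4 and 1.84, 2.37 and 2.17 times in control 2, 3 and 4, with neither gene counted in control 1. In 6 of the 7 libraries with a ratio SERPINB3 had more counts, and the widest ratios in both directions were in knockdown. The log2 ratio, with 1 added to each count, averaged 1.3 ± 1.14 in the knockdown libraries and 0.81 ± 0.56 in the controls (SD over 4 libraries each), a difference of 0.49 within the spread between libraries (exact two-sided permutation p = 0.457, where the smallest possible is 0.0286). The value of control 1 in that mean is 0 from the added counts alone. Without control 1 the difference was 0.22 (exact two-sided permutation p = 0.743), and it was 0.04 without knockdown 4 and 0.95 without knockdown 3.

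SERPINB13 stood at 358, 2.35, 634 and 642 CPM in knockdown 1 to 4 and at 0.217, 166, 66.6 and 64.4 CPM in control 1 to 4. Knockdown 1, 3 and 4 lay above all of the controls, and knockdown 2 lay below 3 of the 4. SERPINB13 had a log2 fold change of 2.82 (SE 1.64, edgeR adjusted p = 0.981). It took 45.9% of the cluster's counts in knockdown 4, the library with the most KRT4 and KRT13, keratins of suprabasal oral mucosa, at 45264 and 28768 CPM.

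SERPINB5 (maspin) and SERPINB11 do not act as typical protease inhibitors in human. SERPINB5 stood at 900.4, 60.1, 736 and 417 CPM in knockdown and at 9.08, 513, 267 and 462 CPM in control. It was the member with the most counts in 6 of 8 libraries and was counted in all 8, including the 2 gland-rich ones, where it made up 83.5% of the cluster's counts in knockdown 2 and 71.8% in control 1. Its log2 fold change was 1.14 (SE 1.1, edgeR adjusted p = 0.981), with 0.74 without control 1 and 0.75 without knockdown 1. SERPINB11 stood at 9.7, 0.13, 31.4 and 6.72 CPM in knockdown and at 0, 11.8, 5.46 and 0.135 CPM in control. Control 4 held little of it although it was rich in SERPINB3 and SERPINB5. Its log2 fold change was 1.95 (SE 1.79, edgeR adjusted p = 0.981), with 0.63 without knockdown 3 and 3.26 without control 2. Exons of SERPINB11 overlap those of SERPINB3 on the opposite strand over 620 bases, 16.8% of its own exonic length and 34.9% of that of SERPINB3, and without a stated strand setting reads from that stretch cannot be told apart.

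**Figure D2:**
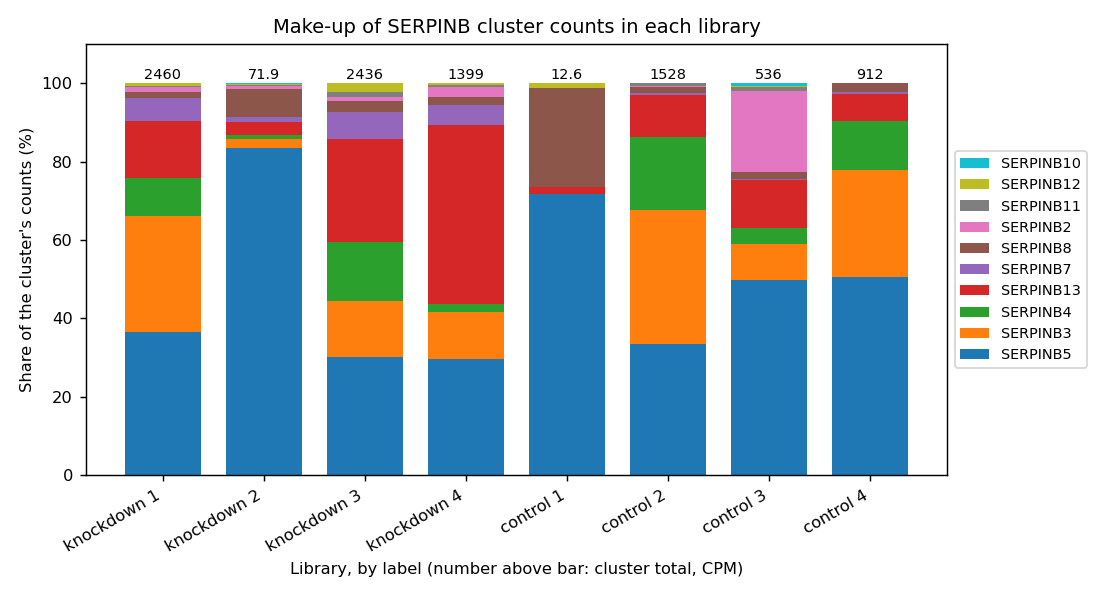
Share of the cluster's counts taken by each gene in each library, in percent, with the cluster's total in CPM above each bar. SERPINB5 takes 83.5% in knockdown 2 and 71.8% in control 1, SERPINB13 takes 45.9% in knockdown 4, and SERPINB2 takes 20.8% in control 3 against at most 2.57% elsewhere.

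SERPINB7, SERPINB12 and SERPINB8 are inhibitors of serine proteases. Loss of SERPINB7 (megsin) causes a palmoplantar keratoderma, SERPINB12 inhibits trypsin-like proteases, and SERPINB8 inhibits furin. SERPINB7 stood at 149, 0.913, 172 and 69.2 CPM in knockdown 1 to 4 and at 0, 5.4, 0.527 and 4.46 CPM in control 1 to 4. Knockdown 1, 3 and 4 lay more than 10-fold above the highest control, and knockdown 2 lay within the range of the controls. By edgeR the log2 fold change of SERPINB7 was 5.63 (SE 1.83, unadjusted p = 0.0134, adjusted p = 0.981), rank 254 of 21192. DESeq2 gave 5.64 (adjusted p = 0.0344).

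SERPINB12 stood at 14.7, 0.261, 51.2 and 6.58 CPM in knockdown 1 to 4 and at 0.163, 0.534, 0.744 and 0.0769 CPM in control 1 to 4. The controls rest on 6, 33, 24 and 4 counts. The same 3 knockdown libraries stood above all of the controls and knockdown 2 within them. For SERPINB12 edgeR gave a log2 fold change of 6.06 (SE 1.53, unadjusted p = 0.00346, adjusted p = 0.981), rank 56 of 21192. DESeq2 gave 6.09 (adjusted p = 5.99e-04). SERPINB8 stood at 35.2, 5.08, 65.2 and 28.6 CPM in knockdown and at 3.18, 24.5, 9.58 and 19.3 CPM in control, and had a log2 fold change of 1.63 (SE 0.838, edgeR adjusted p = 0.981), and of 0.91 without knockdown 3. Exons of HMSD on the same strand cover 6.31% of its exonic length.

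**Figure D3:**
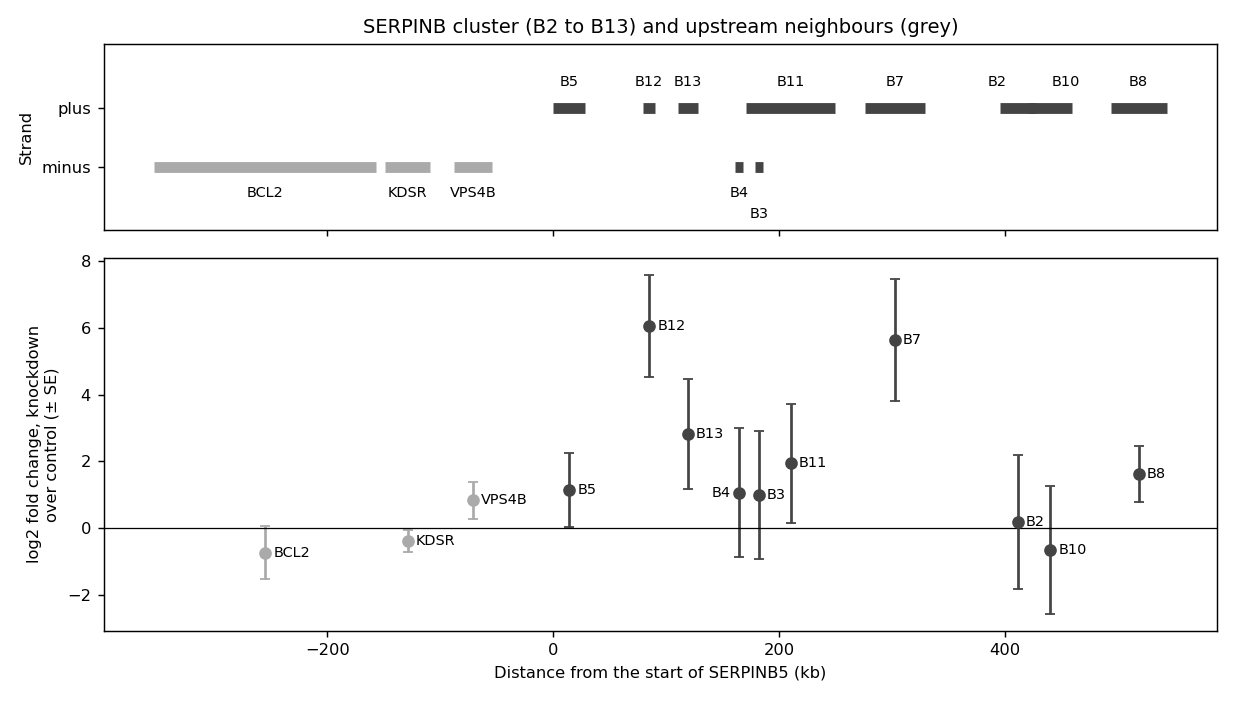
Position of the 10 genes (black, named without the prefix SERPIN) and their 3 neighbours on the side of SERPINB5 (grey) by strand, as distance from the start of SERPINB5 in kb, above the log2 fold change of each (knockdown over control, ± SE derived from the F statistic) at the gene's midpoint. SERPINB12 and SERPINB7 stand at 6.06 and 5.63, and the 4 genes between them at 2.82 (SERPINB13), 1.06 (SERPINB4), 1 (SERPINB3) and 1.95 (SERPINB11), with wide error bars that in part overlap, and the neighbours VPS4B, KDSR and BCL2 lie at 0.83, -0.39 and -0.74.

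SERPINB2, the plasminogen activator inhibitor type 2, and SERPINB10, or bomapin, are known from monocytes and other blood-forming cells as well, and SERPINB2 also from keratinocytes. SERPINB2 stood at 30.05, 0.684, 28.6 and 36.0 CPM in knockdown 1 to 4 and at 0, 2.62, 111 and 0.0384 CPM in control 1 to 4. Its controls ran from 0 to the highest value of all, in control 3. The log2 fold change was 0.18 (SE 2, edgeR adjusted p = 0.999), and 5.05 without control 3 (edgeR adjusted p = 0.975, and between 0.391 and 1 over the edgeR alternatives). SERPINB10 stood at 0.299, 0.0652, 1.15 and 0.384 CPM in knockdown, from 18, 2, 42 and 14 counts, and at 0, 0, 4.31 and 0 CPM in control, where the only counts were the 139 of control 3. Its log2 fold change was -0.65 (SE 1.91, edgeR adjusted p = 0.997), and 7.66 without control 3, a value set against libraries at 0 that depends on the prior count. Exons of the 2 genes overlap on the same strand over 547 bases, 19.9% of the exonic length of SERPINB2 and 20.3% of that of SERPINB10, and whether the counts of control 3 lie in that stretch was not tested. The myeloid marker sum of control 3 was 143 CPM, against 100.6 to 434 CPM in the other controls.

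Levels of the genes were compared per kb of exon (CPM per kb of the union of annotated exons). Lengths came from GENCODE 29, while the counted rows carry later versions of the identifiers of all 10 genes, so the exons counted may differ. The SERPINB12 model of 1278 bases starts at 63556160 and leaves out the upstream RefSeq start shown above. SERPINB3 was highest of the 10 in knockdown 1, knockdown 3, control 2 and control 4, at 409.99, 196, 294 and 139 CPM per kb. SERPINB5 was highest in knockdown 2, control 1 and control 3, at 15.2, 2.31 and 67.8 CPM per kb, and SERPINB13 in knockdown 4, at 142 CPM per kb. Over the 8 libraries the medians were 116 CPM per kb for SERPINB3, 111.5 for SERPINB5, 35.01 for SERPINB4 and 25.7 for SERPINB13, and between 0.0674 and 5.69 for the other 6. SERPINB3 stood above SERPINB5 in 4 libraries and below it in the other 4, so their order is not fixed by these data.

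Set against squamous content, the members differed in pattern. SERPINB5 stood at 15.0, 33.1, 16.01 and 28.4 counts per 1000 counts of the 8 basal squamous markers in knockdown 1 to 4 and at 9.67, 14.6, 23.1 and 16.9 in control 1 to 4, a 3.43-fold range over 8 libraries whose SERPINB5 level differed far more in CPM. SERPINB3 and SERPINB4 together stood at 16.1, 1.31, 15.6 and 13.2 in knockdown and at 0, 22.9, 6.08 and 13.2 in control. On this scale the pair was lowest in the 2 gland-rich libraries, while SERPINB5 was highest of the 8 in knockdown 2 and lowest in control 1. In those 2 libraries ITGA6, ITGB4 and COL17A1 held 49.1% and 54.8% of the marker counts, so the scale there is unlike that of the others. Among the other members, SERPINB8 had a 5.77-fold range on this scale. SERPINB13 stood at 5.97, 1.29, 13.8 and 43.8 in knockdown and at 0.232, 4.74, 5.77 and 2.35 in control.

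SERPINB7 stood at 2.49, 0.503, 3.74 and 4.72 per 1000 basal marker counts in knockdown 1 to 4 and at 0, 0.154, 0.0457 and 0.163 in control 1 to 4. On this scale it was the 1 member of 10 whose labels did not overlap, against 0.212% of genes tested that were higher in knockdown without overlap. The value of knockdown 2 rests on 28 counts of SERPINB7. SERPINB12 stood between 0.144 and 1.115 in knockdown and between 0.00281 and 0.174 in control, where the highest control value was that of control 1, with 6 counts. These ratios depend on the marker genes chosen and have no test. Per 1000 counts of the 10 suprabasal markers SERPINB7 stood at 4.03, 13.2, 9.25 and 0.852 in knockdown and at 0, 0.982, 0.0512 and 2.33 in control, and the labels overlapped for all 10 members, against 0.033% of genes tested that were higher in knockdown without overlap.

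**Figure D4:**
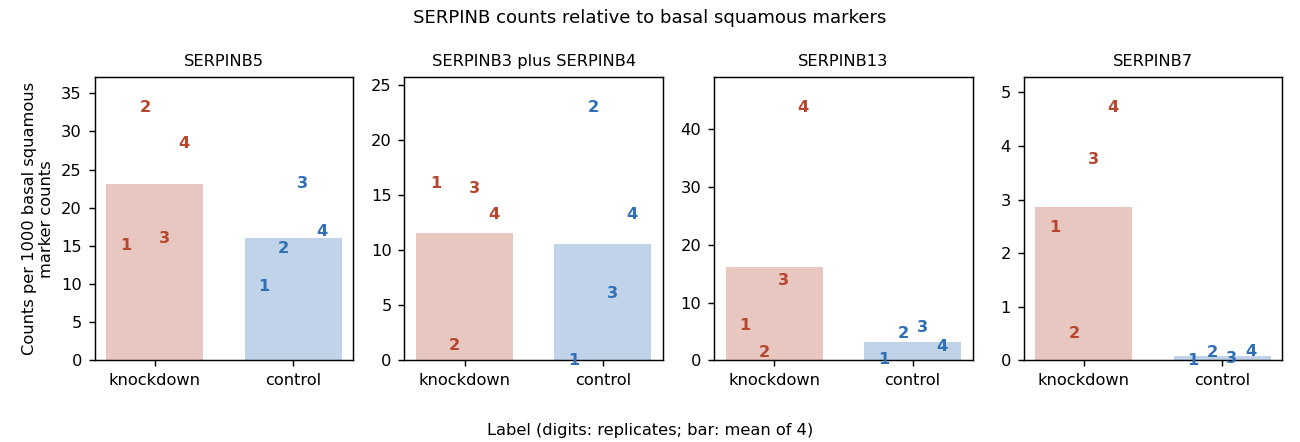
Counts per 1000 counts of basal squamous markers for SERPINB5, the SERPINB3 and SERPINB4 pair, SERPINB13 and SERPINB7, with bars at the mean of 4 libraries and digits for replicates (red, labelled knockdown; blue, labelled control). SERPINB7 lies between 0.503 and 4.72 in knockdown and at or below 0.163 in control, while the other panels overlap.

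Knockdown 2, a gland-rich library, set the overlap of several members. It was the lowest of its label for all 10 members, so leaving it out could only move members toward higher without overlap. The genes tested were not picked in that way, so their shares here and below are no matched background and the counts only describe. Without knockdown 2, in a fit of 7 libraries, 4 of 10 members (SERPINB7, SERPINB8, SERPINB12 and SERPINB13) were higher in knockdown with no overlap. The share of genes tested was 3.29%. The same 4 had an unadjusted edgeR p under 0.05, against 4.32%. None was called, while 1 gene was (0.00452% of those tested; edgeR adjusted p of the 4 from 0.175 for SERPINB12 to 0.63 for SERPINB13). A further fit, chosen once the data had been seen, left out knockdown 2 and control 1. The same 4 were again higher with no overlap, against 3.94% of genes tested, and had an unadjusted p under 0.05, against 4.12%. None was called, against 0.00459%, with log2 fold changes of 5.62 for SERPINB7, 6.27 for SERPINB12, 2.81 for SERPINB13 and 1.69 for SERPINB8 and edgeR adjusted p of 0.271, 0.311, 0.323 and 0.618. With knockdown 4 and control 3 also left out, 2 libraries of each label remained, with under 1% of counts in muscle or gland markers. Control 2 stayed in that fit, with muscle markers at 0.435% of its counts and a fibroblast marker sum of 10784 CPM. Among the members, 7 of 10 were then higher in knockdown with no overlap, against 11.5% of genes tested that were. By edgeR 0 members were called, against 0% of the 22260 genes tested. In that fit SERPINB7 was at 5.5 (SE 0.436, edgeR adjusted p = 0.104).

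**Figure D5:**
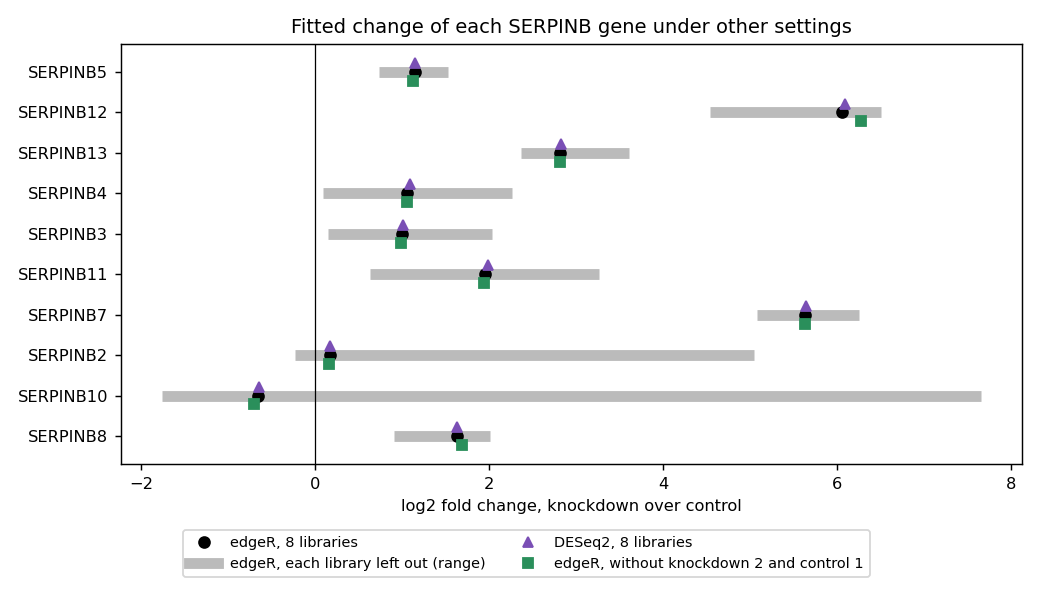
Fitted log2 fold change of each gene (knockdown over control) in the edgeR fit of 8 libraries, its range with each library left out, in DESeq2, and in edgeR without knockdown 2 and control 1. SERPINB7 runs from 5.08 to 6.24 and SERPINB12 from 4.54 to 6.5 with each library left out, while SERPINB2 and SERPINB10 lie on both sides of 0.

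Other clade B serpins, on chromosome 6, had smaller ranges. SERPINB1, an inhibitor of neutrophil proteases, stood at 233, 102, 229.5 and 340 CPM in knockdown and at 27.1, 374, 174 and 98.6 CPM in control, with a log2 fold change of 0.71 (SE 0.702). Of SERPINB1, SERPINB6 and SERPINB9, 1 was fitted higher and 2 lower, with a median of -0.18 and 0 called. Of 10 flanking genes on 18q, 8 were tested, 4 were fitted higher and 4 lower, with a median of 0.02 and 0 called. VPS4B, next to SERPINB5 and an ATPase of membrane sorting, stood at 157, 41.9, 91.1 and 111 CPM in knockdown and at 21.5, 89.2, 53.7 and 110 CPM in control. KDSR, of ceramide synthesis, was at -0.39 (SE 0.334).

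Of a list of 12 genes, proteases that the members are known to inhibit with the urokinase receptor, 10 were tested, of which 2 were fitted higher and 8 lower, at a median of -0.93 on the log2 scale. By edgeR 0 were called, and 2 had an unadjusted edgeR p under 0.05, against 4.78% of all genes tested in either direction. These were PLAT, the tissue plasminogen activator, at -2.74, and CTSK, cathepsin K, at -1.61 on the log2 scale, with an edgeR adjusted p of 0.981 for both. PLAT stood between 12.3 and 22.4 CPM in knockdown and between 23.7 and 456 CPM in control. FURIN, the target of SERPINB8, stood at 150.2, 139, 218 and 62.1 CPM in knockdown and at 71.0, 274, 35.7 and 77.0 CPM in control. PLAU, the urokinase that SERPINB2 inhibits, stood at 119, 3.16, 37.0 and 15.2 CPM in knockdown and at 5.14, 245, 21.2 and 182 CPM in control. The mast cell and neutrophil proteases CMA1 and CTSG, targets of SERPINB4, were at most 2.28 CPM in knockdown and 4.87 CPM in control.

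Of the tissue marker lists, the suprabasal squamous genes had 10 of 10 fitted higher (median log2 fold change 4.15), the basal ones 6 of 8 (0.37) and general epithelial ones 4 of 6 (0.34). Muscle markers had 0 of 12 fitted higher (-1.98), fibroblast markers 0 of 8 (-1.78), myeloid markers 1 of 8 (-0.82), mast cell markers 5 of 5 (0.76) and gland markers 3 of 6 tested (1.05). None of these genes was called by edgeR. Suprabasal markers summed to 36959, 69.3, 18584 and 81182 CPM in knockdown 1 to 4 and to 42.3, 5501, 10288 and 1912 CPM in control 1 to 4. The sum was thus high in the same 3 knockdown libraries as SERPINB7, SERPINB12 and SERPINB13, but it pools unlike genes. KRT4 stood at 285 CPM in knockdown 3 and 45264 CPM in knockdown 4, and KRT10 at 7933 and 56.7 CPM. Of those 3 libraries, knockdown 4 had the highest sum and the lowest SERPINB7 and SERPINB12, at 69.2 and 6.58 CPM. In control 3 SERPINB7 was at 0.527 CPM. The part of suprabasal content in the values of these members was not tested.

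The genes with the most similar pattern to each member were ranked by Pearson correlation of log2(CPM + 1) over the 8 libraries, among 15036 genes with a symbol and a mean of at least 1 on that scale. The points share depth and tissue content, so the values only describe. The top 2 were IL36G, an epithelial interleukin, and LCE3A, a cornified envelope gene, for SERPINB12 (r = 0.994 and 0.991), and DHRS1 and ALOXE3, a lipoxygenase of the skin barrier, for SERPINB7 (0.994 and 0.989). IL36G stood at 34.2, 0.326, 278 and 12.1 CPM in knockdown and at 0, 1.49, 1.43 and 0.461 CPM in control. For SERPINB13 they were TMEM40 and DUOXA1 (0.993 and 0.992), for SERPINB5 BLZF1 and TFAP2A, a transcription factor of surface ectoderm (0.992 and 0.991), and for SERPINB8 CDK5R1 and PLD2 (0.992 and 0.99).

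SERPINB3 was most like ARPC2 and NECTIN1, an adhesion protein of epithelial junctions (both 0.989), and SERPINB4 most like FABP5, the epidermal fatty acid binding protein, and FARP2 (0.988 and 0.987). FABP5 stood at 1271, 8.7, 1509 and 266 CPM in knockdown and at 1.9, 1080.4, 73.9 and 676 CPM in control, the same order of libraries as SERPINB4 within knockdown and within control. SERPINB11 was most like RGS12 and SH3BP1 (0.987 and 0.947). SERPINB2 was most like ZFP36, an immediate early gene of mRNA decay, and SH3RF2 (0.97 and 0.964), with ZFP36 at 866 CPM in control 3 and between 22.1 and 246 CPM in the other 7 libraries. SERPINB10 was most like UBE2Q2P2 and MAP3K8 (0.993 and 0.97), a rank set largely by control 3.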

How the data were processed

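The authors deposited whole-number read counts per gene for 8 libraries, without normalisation. STAR, featureCounts, Subread and hg38 are named in the submitters' processing notes. Versions, annotation, strand setting and read length are not given in the sources used. The molecule label reads polyA RNA, while the extraction protocol describes ribosomal RNA depletion. The titles say knockdown where the column names say knockout, and columns were matched by group and number.

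CPM was computed from column totals. The test between labels was that of edgeR 4.0.16 in R 4.3.3 (quasi-likelihood test, TMM factors, filterByExpr with its minimum count of 10, intercept and group) over 21192 genes, with Benjamini-Hochberg adjustment over all of them. Each SE printed with an edgeR value is the absolute log2 fold change divided by the square root of the quasi-likelihood F. It is derived from the test and is only approximate, above all for genes with few counts. The SERPINB3 to SERPINB4 ratio used an exact two-sided permutation test over 70 assignments (scipy 1.17.1). Alternatives were DESeq2 1.42.0, limma-voom (limma 3.58.1), RLE factors, library totals, other filters, a replicate block, each library left out and the near-identical pair summed. The scripts were tested on simulated counts first.

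Gene models and exon lengths came from GENCODE 29, promoters from RefSeq (GRCh38.p14) and coding identities from global alignment in Biopython 1.88. The count rows carry later identifier versions than GENCODE 29 for all 10 members, so exon lengths and overlaps may differ from those counted. The rule for named genes took all 10 members, COL1A1, called genes and the 2 most abundant genes of each list, and the 2 genes most like each member. Not every gene it named is printed, and others printed (SERPINB9, CD68, CMA1, CTSG, PLAT, CTSK, ITGA6, ITGB4, COL17A1 and BCL2 among them) were chosen after their values were seen. Members and lists were chosen with earlier results of these data known. Intervals and the limits at 0 counts cover counting error only.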

Additional observations from a re-analysis of the deposited data

Results flagged for a closer look

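In groups of 4 libraries, 2 of the 22 groups examined held a library far from the other 3. The rule flags about 1 in 20 groups by chance when values are normally spread and groups independent. CPM values with zeros, in groups that share the same libraries, do not meet those conditions, so the flags only describe. SERPINB2 in the libraries labelled control was at 111 CPM in control 3 and at most 2.62 CPM in the other 3. SERPINB10 in the same label was at 4.31 CPM in control 3 and at 0 in the other 3. Exons of these 2 genes overlap on the same strand, and whether they share reads in control 3 was not tested.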

How the results depend on the processing

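Of 169 fitted changes of single members under the alternatives, 158 kept their direction and their side of the threshold, 9 turned direction and 2 passed the threshold. DESeq2 called 146 genes and 2 members, SERPINB7 (log2 fold change 5.64) and SERPINB12 (6.09); edgeR called 0 genes in all 8 libraries and 1 gene without knockdown 2 and control 1. With each library left out, edgeR called from 0 to 1 genes, the 1 without knockdown 2, and 0 members. SERPINB10 was at 3.03 with limma-voom, at 7.66 without control 3 (range -1.76 to 7.66 with each library left out) and at 8.58 with the 4 muscle-rich or gland-rich libraries (muscle or gland markers above 1%) left out. SERPINB2 was at -0.26 with library totals and ran from -0.23 to 5.05 with each library left out, with -0.01 without knockdown 3, -0.19 without control 2 and -0.22 without control 4. The log2 ratio of SERPINB3 to SERPINB4 differed by 0.04 to 0.95 with each library left out. The causes were not tested. With the replicate block edgeR called 0 genes and 0 members, and SERPINB10 was at 3.39. Same-numbered libraries did not deviate together (correlations from -0.687 to -0.361). The labels do not say whether the numbers pair libraries. With 4 libraries of each label that differ widely in tissue content, such correlations cannot decide it. SERPINB10 rests on at most 139 counts.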
